A study of Mus musculus with 10 samples.

Results

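The regions described here are windows of open chromatin that were called in mouse osteoblasts given TNFa, with or without BMP4, and in neither group that went without TNFa. ATAC-seq, which reads where a transposase can cut the DNA, was run on MC3T3-E1 cells, an osteoblast line derived from mouse calvaria. The 4 groups were cells given TNFa and BMP4 (TNFa+BMP4), TNFa alone (TNFa), BMP4 alone (BMP4) and neither (untreated), with 2 libraries each, and 2 libraries of sonicated DNA served as background for the authors' peak calls. All cells were kept in 2.5% serum, and TNFa and BMP4 were each used at 10 ng/ml. In the protocol TNFa was added 30 min before BMP4, which stayed on for 3 h. The sample labels name 3 h for TNFa as well, and the duration of TNFa exposure therefore remains unclear. Only the titles of the TNFa libraries carry the word p65, for a reason the labels leave unstated. Nothing in the labels ties the 2 libraries of a group to separate cultures, and a p-value thus reflects library-to-library spread that could be purely technical.

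A window of 125 bp on the TNFa list was kept when a TNFa+BMP4 window started within 62 bp of it and no BMP4 or untreated window started within 500 bp. This gave 846 regions, which is 3.63% of the 23288 windows on the TNFa list and 4.49% of the 18833 windows called in both groups given TNFa. For comparison, 14723 windows of the TNFa list were called in all 4 groups. The opposite choice, windows called in both groups without TNFa and in neither group with it, gave 2086 of 20307 (10.3%). Being called in some lists and not in others is what selected the regions, so neither that pattern nor their level over background is a finding. The untreated and BMP4 lists hold no level at these positions, so a region called only with TNFa may still have had cuts, below the calling threshold, in cells without TNFa.

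TNFa is an inflammatory cytokine that binds the receptors encoded by Tnfrsf1a and Tnfrsf1b. Adaptors such as TRAF2 then activate the kinases that free the NF-kB transcription factors from their IkB inhibitors, and NF-kB enters the nucleus and binds promoters and enhancers. Its targets include chemokines, cytokines, adhesion molecules and survival genes, and also the inhibitors that switch the response off again, such as IkB alpha and A20. BMP4 is a bone morphogenetic protein that acts through SMAD factors and promotes bone formation.

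The letters of the regions could be read where a region lay inside a RefSeq promoter (build GRCm38.p6, which shares its coordinates with mm10), which held for 66 of the 846. The search covered both strands. The NF-kB consensus, 10 bases long, occurred in 6 of these 66 (9.09%), against 79 of the 3204 windows called in all 4 groups that lay inside a promoter (2.47%). Of all 32851 RefSeq promoters of 300 bases, longer than the 125 bp windows, 4.51% held it. The 6 regions are shown because they carry the letters that NF-kB recognises at regions called only with TNFa. They run 5′ to 3′ on the strand of the promoter, with the consensus in capitals, and in the first 3 the capitals cover overlapping matches.
Tnfrsf9, chr4:150927922-150928046, + strand: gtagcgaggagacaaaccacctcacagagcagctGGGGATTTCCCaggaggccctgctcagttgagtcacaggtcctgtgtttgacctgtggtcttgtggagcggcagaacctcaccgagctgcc
H2-K1, chr17:34000341-34000465, - strand: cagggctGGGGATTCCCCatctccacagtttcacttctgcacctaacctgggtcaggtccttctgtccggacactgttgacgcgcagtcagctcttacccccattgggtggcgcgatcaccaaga
Bbc3, chr7:16309436-16309560, + strand: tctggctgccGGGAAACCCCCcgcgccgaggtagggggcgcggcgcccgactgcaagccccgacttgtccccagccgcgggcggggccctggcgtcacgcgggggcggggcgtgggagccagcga
Maff, chr15:79348260-79348384, + strand: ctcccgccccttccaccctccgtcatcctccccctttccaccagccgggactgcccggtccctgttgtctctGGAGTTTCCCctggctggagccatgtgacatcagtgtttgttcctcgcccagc
Mrm3 (window on the strand of Glod4), chr11:76243665-76243789, - strand: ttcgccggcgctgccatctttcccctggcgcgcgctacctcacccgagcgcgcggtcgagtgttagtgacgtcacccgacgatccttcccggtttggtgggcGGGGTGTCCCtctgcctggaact
Mir100hg, chr9:41474707-41474831, + strand: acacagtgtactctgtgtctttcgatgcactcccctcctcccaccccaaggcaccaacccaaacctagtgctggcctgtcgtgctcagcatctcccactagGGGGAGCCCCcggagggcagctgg
Tnfrsf9 encodes 4-1BB, a costimulatory receptor of the TNF receptor family. H2-K1 encodes an MHC class I heavy chain, Bbc3 the death-promoting protein PUMA, and Maff a small MAF transcription factor. The H2-K1 window has close relatives elsewhere in the MHC, so its tags could have been shared with them.

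Motifs of interferon signalling also occurred in a few of the 66 regions. The core of the interferon-stimulated response element, GAAA followed after any 2 bases by GAAA, was present in 2 of 66 (3.03%), against 0.718% of the promoter windows called in all 4 groups and 3.44% of all promoters. The STAT element TTCNNNGAA was present in 4 of 66 (6.06%), against 2.81% and 8.3%. The AP-1 site TGANTCA was present in 3 of 66 (4.55%), against 2.47% and 7.81%. The shares among the regions lay above those of the windows called in all groups. For these 3 motifs they lay below those of all promoters, whose 300 bases offer more room for a match than 125 bp windows. The next 4 regions are shown because they lie at a pair of interferon genes, a death receptor gene and a gene with 3 regions, all described later. The STAT element was also present in regions at Zfp933 and Hsd3b7, which are not shown. Capitals mark the interferon element in the first pair, where it reads on the opposite strand, and the STAT element in the second pair.
Gbp3, chr3:142559958-142560082, + strand: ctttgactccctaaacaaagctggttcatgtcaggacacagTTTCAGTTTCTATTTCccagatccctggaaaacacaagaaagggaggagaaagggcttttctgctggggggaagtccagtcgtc
Gbp2, chr3:142620562-142620686, + strand: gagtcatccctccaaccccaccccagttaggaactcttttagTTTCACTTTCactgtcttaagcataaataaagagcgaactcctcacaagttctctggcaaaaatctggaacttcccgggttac
Fas, chr19:34290555-34290679, + strand: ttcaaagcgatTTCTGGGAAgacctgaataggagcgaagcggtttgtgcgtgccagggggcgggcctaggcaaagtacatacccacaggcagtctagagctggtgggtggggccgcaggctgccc
Sbno2, chr10:80101172-80101296, - strand: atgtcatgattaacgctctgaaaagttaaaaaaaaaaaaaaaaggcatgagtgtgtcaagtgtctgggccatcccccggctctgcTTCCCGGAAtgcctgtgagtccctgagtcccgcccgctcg
Gbp2 and Gbp3 encode guanylate-binding proteins, which are induced by interferon and lie in a cluster of closely related genes, so tags could have been shared between relatives. Fas encodes a death receptor, and Sbno2 encodes a transcriptional coregulator. Of motifs found at promoters in general, GGGCGG was present in 56.1% of the 66 regions and in 56.2% of the promoter windows called in all groups. CCAAT was present in 15.2% of the 66 regions, against 37.4%. The median GC content was 64.4% in the regions and 64.8% in the windows called in all groups. A match is a description of the letters and not evidence that a factor was bound.

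In their levels, the regions were modest ones. The median level, in tags per 10M tags of a library, was 6.89 and 9.55 in the TNFa+BMP4 libraries, 7.89 and 7.60 in the TNFa libraries, and 1.01 and 1.07 in the background libraries. All 4 treated libraries stood above both background libraries in 842 of the 846 regions. In the windows called in all 4 groups the medians were 14.2 and 20.7 with TNFa+BMP4, 15.2 and 18.7 with TNFa, while BMP4 alone gave 14.97 and 25.1 and untreated cells gave 17.3 and 20.6. The regions were thus at lower levels than the windows shared by all groups, in each of the 4 libraries given TNFa. The authors' log2 fold over background had a median of 2.96 in the TNFa+BMP4 list and 2.83 in the TNFa list for the regions, against 3.73 and 3.70 for the windows called in all 4 groups. Of the regions, 80.1% lay below the median peak score of the TNFa list. The groups without TNFa had the deeper libraries. Total tags (M) were 21.8 and 18.8 with TNFa+BMP4 and 16.5 and 19.7 with TNFa, against 26.05 and 27.9 in cells given BMP4 only and 30.1 and 29.1 in untreated cells.

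**Figure D1:**
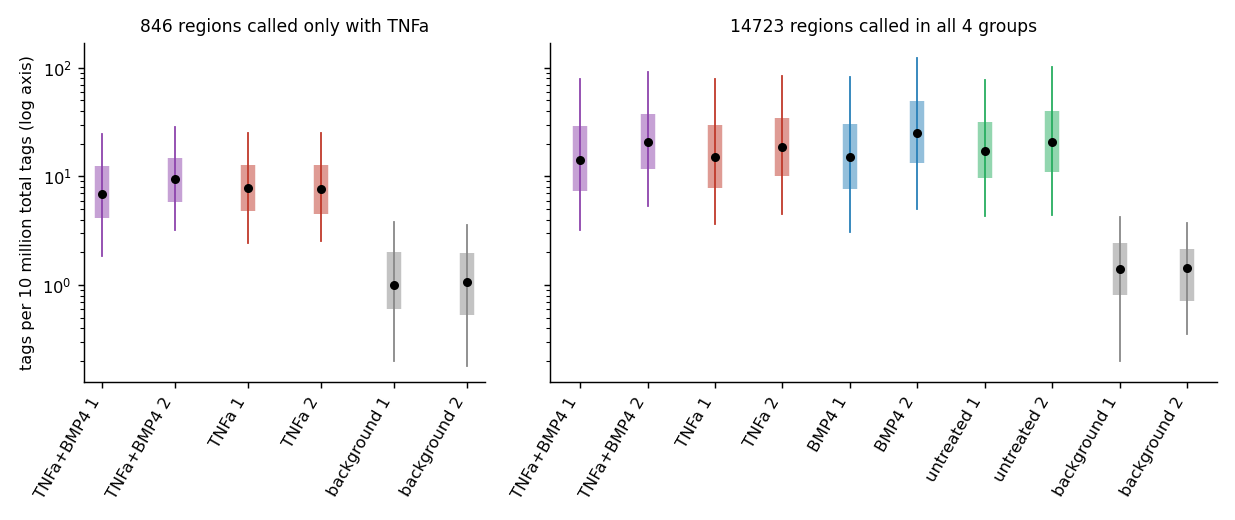
Tags per 10M total tags (log axis) in each library, for the 846 regions called only with TNFa (left) and the 14723 called in all 4 groups (right). Points are medians, thick bars the quartiles and thin bars the 5th to 95th percentiles. Medians of the regions called only with TNFa lie between 6.89 and 9.55 in the treated libraries, against 1.01 and 1.07 in the background libraries.

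Values close to the limits of the rule show how sharp it was. A region at Mir23a had its nearest window without TNFa at 501 bp and a log2 fold over background of 4.21 with TNFa+BMP4 and 3.87 with TNFa. A window near 4930563J15Rik, with folds of 6.41 and 6.10, was left out because a window without TNFa started 500 bp away. At the other limit, a region near Gm20139 had its TNFa+BMP4 window 62 bp away and folds of 4.03 and 4.18, and a window near Grb10, 63 bp away, was left out with folds of 4.84 and 5.14. The nearest window without TNFa lay 500 to 1000 bp away for 101 regions, 1 to 5 kb away for 189, 5 to 50 kb away for 435 and farther for 121.

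Most regions lay away from promoters. By the authors' annotation 336 (39.7%) were in introns, 308 (36.4%) were intergenic and 153 (18.1%) were at promoters. Promoters made up 40.7% of the windows called in all 4 groups and 11.6% of the 2086 windows called only without TNFa, so both one-sided sets were poorer in promoters than the shared set. The median distance to the nearest transcription start was 11981 bp for the regions and 2304 bp for the windows called in all groups. Promoter regions had the lowest fold over background, with medians of 2.48 with TNFa+BMP4 and 2.39 with TNFa, against 3.10 and 3.00 in intergenic regions. Background tags were also higher at promoters, with medians of 2.02 and 1.79 per 10M, against 0.808 and 0.895 in intergenic regions. Annotated LTR repeats held 34 regions (4.02%) and SINEs 30 (3.55%), against 5.56% and 3.21% of the windows called only without TNFa and 2.28% and 1.45% of the windows called in all groups. As 48 regions began within 500 bp of the next, the 846 windows make 798 separate sites.

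**Figure D2:**
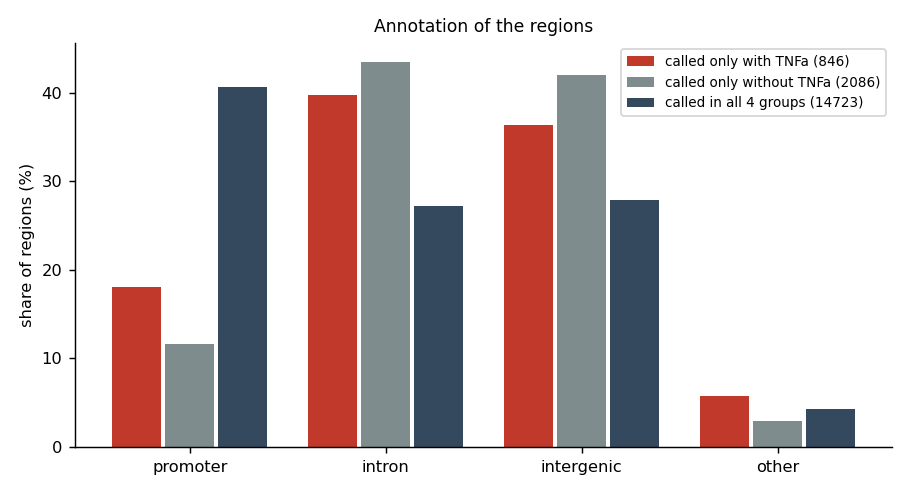
Share of regions (%) at promoters, in introns, between genes and in other classes, for regions called only with TNFa, only without TNFa, and in all 4 groups. Promoters make up 18.1%, 11.6% and 40.7% of them.

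The nearest genes numbered 734, of which 637 had 1 region, 83 had 2 and 14 had 3 or more. Counts per gene are of windows, and windows within 500 bp of each other were not joined. For 176 of the genes (23.98%) no window of the BMP4 or untreated list had the gene as its nearest. Among the genes described here this held for C3, Gbp2, Gbp3, H2-K1, Ifngr2, Irf8, Met, Slc6a4, Slpi, Tnfrsf9 and Traf3. The rule allowed no window without TNFa within 500 bp of a region, so such absence follows in part from it. The share over all genes was not computed. Icam1 had 3 windows in each list with TNFa, 1 in the BMP4 list and 0 in the untreated list. To describe the genes by role, 17 lists of known genes were used, and each share is read against the 4.49% that the regions make up of all windows called in both groups given TNFa. Because the regions were selected on the TNFa contrast, these shares carry no test.

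Of the gene lists of the NF-kB response, 5 held a larger share of regions than the 4.49% of all windows. Survival genes, also targets of NF-kB, did not, as given below, and were left out of the joined count. Feedback inhibitors had 8 of 39 windows (20.5%), NF-kB subunits and signalling genes 5 of 32 (15.6%), chemokines 3 of 21 (14.3%), inflammatory cytokines and growth factors 8 of 41 (19.5%) and adhesion genes 5 of 27 (18.5%). Joined, these 5 lists had 29 of 160 windows (18.1%) at 22 genes. In the opposite direction, windows called only without TNFa made up 7 of 118 (5.93%) of the windows at the same lists, against 10.3% of all windows. The cytokine list alone lay above that share, with 4 of 35 (11.4%) at Il6, Tnfrsf11b and Tslp, and the rest lay below it. Tslp and Vcam1 had windows of both kinds, called only with TNFa and only without it. Interferon and antigen presentation genes had 4 of 21 (19.0%) and cell death effectors 4 of 37 (10.8%). The other lists were near or under the background: BMP and SMAD targets had 4 of 73 (5.48%), matrix proteases 3 of 50 (6.0%), AP-1 and early response genes 4 of 113 (3.54%) and survival genes 1 of 38 (2.63%). No region fell at an osteoblast gene (0 of 70 windows), a chondrocyte marker (0 of 14), an adipocyte marker (0 of 5), a haematopoietic marker (0 of 1), a muscle or endothelial marker (0 of 8) or a housekeeping gene (0 of 40). As a check of the cell label, 8 of 10 osteoblast markers had a window in all 4 lists, against 3 of 5 chondrocyte, 2 of 5 adipocyte, 2 of 4 endothelial, 1 of 5 haematopoietic and 0 of 4 muscle markers.

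**Figure D3:**
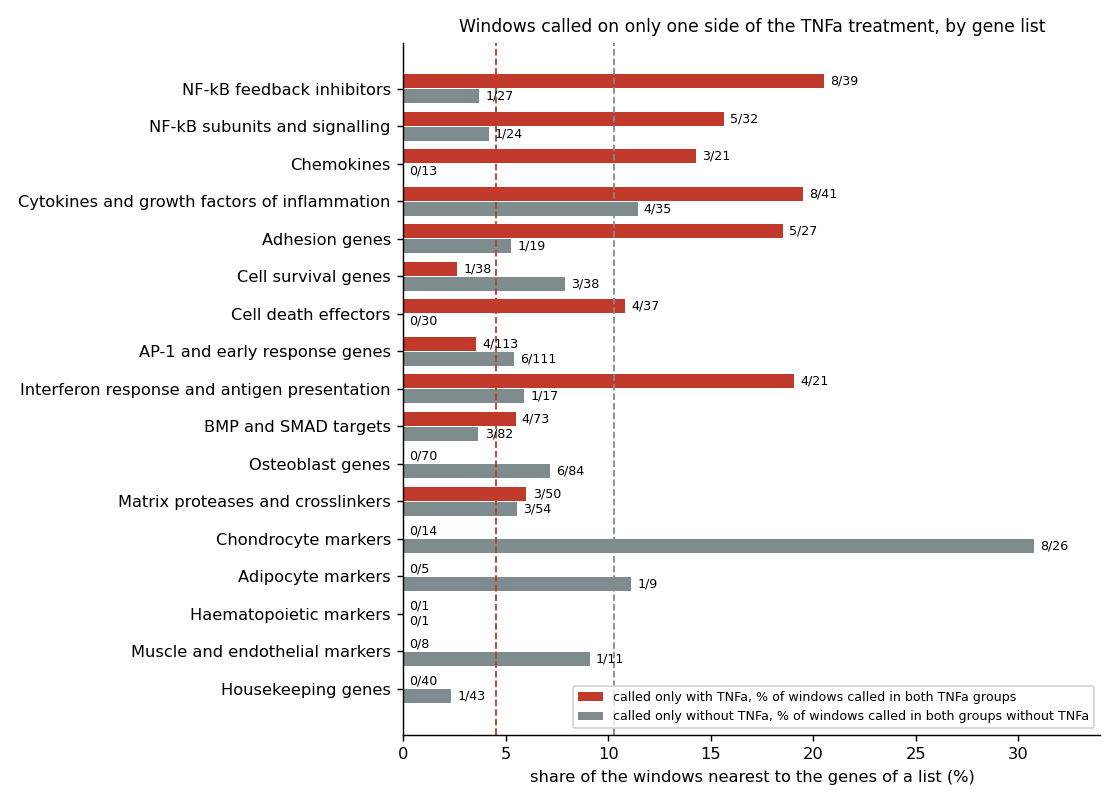
Regions called only with TNFa as a share (%) of the windows called in both groups given TNFa (red), and windows called only without TNFa as a share of those called in both groups without it (grey), for 17 gene lists, with counts beside the bars. Dashed lines mark the shares over all windows, 4.49% and 10.3%. Feedback inhibitors reach 20.5% in red and 3.7% in grey.

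Among the chemokines, Ccl2, which encodes a chemokine that attracts monocytes, had 2 regions upstream of its start. The nearer, at chr11:82016539-82016663, 18976 bp upstream, had 15.6 and 59.4 tags per 10M with TNFa+BMP4, 23.05 and 76.0 with TNFa, and 3.43 and 4.30 in background. The farther, at chr11:82006905-82007029, had 5.06 and 14.9 tags per 10M with TNFa+BMP4, 10.3 and 12.2 with TNFa, and 1.41 and 1.25 in background. All treated libraries stood above background at both sites, as in 842 of all 846 regions. The second library of a group was higher than the first, by more at the nearer site. A region at the 3′ end of the neighbouring Ccl7, another monocyte chemokine, had 5.06 and 9.02 with TNFa+BMP4, 6.67 and 8.61 with TNFa, and 1.41 and 0.90 in background.

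The feedback inhibitors had regions at 7 genes. Nfkbia encodes IkB alpha, which holds NF-kB in the cytoplasm, and its region at chr12:55465737-55465861, 26848 bp from the start site, had 12.4 and 13.8 tags per 10M with TNFa+BMP4, 14.0 and 18.7 with TNFa, and 2.83 and 1.97 in background. Nfkbie encodes IkB epsilon, and its first-intron region at chr17:45557518-45557642 had 16.5 and 31.3 with TNFa+BMP4, 21.2 and 50.7 with TNFa, and 2.02 and 5.73 in background. The promoter region of Zc3h12a, which encodes the RNase Regnase-1, at chr4:125127873-125127997, had 12.4 and 10.1 with TNFa+BMP4, 12.7 and 11.1 with TNFa, and 2.83 and 1.61 in background. Treated libraries stood above background in all 3, as in 842 of all 846 regions, which were called against this background. The 2 treated groups overlapped at Nfkbie and Zc3h12a and nearly met at Nfkbia, where TNFa+BMP4 was the lower. Bcl3, an atypical IkB protein, had a region in an intron with 12.9 and 27.1 tags per 10M with TNFa+BMP4, 14.6 and 32.9 with TNFa, and 3.23 and 1.61 in background, and another 1550 bp upstream. Weaker regions lay at Tnfaip3, which encodes the deubiquitinase A20, Tnip1, which encodes an A20-binding protein, and Otud7b, which encodes the deubiquitinase Cezanne. Tnfaip3 had 2.30 and 3.72 tags per 10M with TNFa+BMP4, 1.82 and 6.59 with TNFa, and 0 and 0.716 in background, so its lowest treated value rested on 3 tags.

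Signalling genes with a region were the receptor gene Tnfrsf1b, the adaptor genes Traf2 and Traf3, and Map3k14, which encodes the kinase NIK. The Traf2 region, 2674 bp upstream at chr2:25549552-25549676, had 23.4 and 24.9 tags per 10M with TNFa+BMP4, 44.9 and 31.4 with TNFa, and 2.22 and 0.716 in background. The groups did not overlap there, with TNFa+BMP4 the lower. The log2 fold change of TNFa+BMP4 over TNFa was −0.63 ± 0.56 (SE), which did not pass the test across all windows.

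Cytokine genes with regions were Csf1, Lif, Il34, Tslp and the receptor gene Tnfrsf9. Lif encodes leukaemia inhibitory factor, a cytokine of the interleukin-6 family, and its region at chr11:4299849-4299973, 33115 bp from the start, had 33.1 and 19.1 tags per 10M with TNFa+BMP4, 19.4 and 15.7 with TNFa, and 1.01 and 1.79 in background. Csf1 encodes the growth factor of macrophages and osteoclast precursors and had 3 regions. The highest of them, in the last intron at chr3:107743775-107743899, had 22.1 and 19.1 with TNFa+BMP4, 13.3 and 21.3 with TNFa, and 1.01 and 1.07 in background. At both genes the values of the treated groups overlapped, and each stood above background, as in 842 of all 846 regions.

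Of the adhesion genes, Icam1, which encodes a ligand of leukocyte integrins, had the strongest regions. They lay in its second intron 374 bp apart, and the one at chr9:21022367-21022491 had 30.8 and 21.8 tags per 10M with TNFa+BMP4, 46.7 and 27.4 with TNFa, and 1.62 and 1.07 in background. The other had 30.8 and 17.0 with TNFa+BMP4, 40.0 and 15.7 with TNFa, and 1.62 and 2.33 in background. In these windows the first library of a group was the higher, the reverse of the Ccl2 sites. Itgav and Itgb3, which encode integrin subunits, and Vcam1, which encodes a ligand of leukocyte integrins, had 1 region each. The Vcam1 region was low, with 3.68 and 2.65 with TNFa+BMP4, 4.25 and 3.55 with TNFa, and 0.202 and 0.716 in background.

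Genes of cell death and survival had 5 regions, among them the one with the steepest contrast to background. Birc2 encodes the ubiquitin ligase cIAP1, which restrains TNF-induced death. Its region 1124 bp upstream, at chr9:7838119-7838243, had 6.89 and 18.6 tags per 10M with TNFa+BMP4, 5.46 and 23.3 with TNFa, and 0.202 and 0 in background. The authors' log2 fold over background was 7.06 with TNFa+BMP4 and 7.24 with TNFa. The lower of the pair was the highest of all 846 regions, at a place where background was at or close to 0. Fas had a region at its promoter with 12.4 and 26.01 with TNFa+BMP4, 18.2 and 21.8 with TNFa, and 2.83 and 2.86 in background, and another 5657 bp upstream. The Bbc3 promoter had 9.65 and 20.2 with TNFa+BMP4, 6.07 and 16.7 with TNFa, and 3.23 and 1.79 in background. Casp8, which encodes the initiator caspase of death receptors, was the nearest gene of a region 54535 bp away that had 1.84 and 9.02 with TNFa+BMP4, 6.67 and 8.61 with TNFa, and 0.606 and 0.358 in background. Treated values at these genes lay above background in every library, as in 842 of all 846 regions, and the treated groups overlapped at all 4.

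At interferon genes, the Gbp3 promoter region had 5.97 and 12.2 tags per 10M with TNFa+BMP4, 3.64 and 13.2 with TNFa, and 0.606 and 0.358 in background. The Gbp2 promoter region had 1.84 and 10.1 with TNFa+BMP4, 4.25 and 11.1 with TNFa, and 1.01 and 0.358 in background. Both were higher in the second library of each group. Ifngr2, which encodes a subunit of the interferon gamma receptor, had 3 regions close to its start, and the nearest to the start, at chr16:91546864-91546988, had 26.7 and 28.1 with TNFa+BMP4, 27.9 and 18.2 with TNFa, and 3.84 and 2.69 in background. Irf8, which encodes an interferon regulatory factor, was the nearest gene of 2 regions about 170 kb away, so its assignment rests on distance alone.

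Outside the lists, Stx8, which encodes a syntaxin of endosomes, had 2 regions in an intron 325 bp apart that were among the highest both in tags, by the lowest treated library, and over background. The one at chr11:68092157-68092281 had 33.6 and 37.7 tags per 10M with TNFa+BMP4, 49.7 and 25.3 with TNFa, and 0.606 and 0 in background. The other had 38.1 and 46.7 with TNFa+BMP4, 48.5 and 37.5 with TNFa, and 0.808 and 0.358 in background. Ranked by its lowest treated library, the region with the most tags was the one at Mir23a, with 86.4 and 67.4 with TNFa+BMP4, 66.7 and 39.0 with TNFa, and 3.63 and 3.58 in background. Trim8, which encodes a ubiquitin ligase of cytokine signalling, was the nearest gene of 4 regions, the most of any gene. These were counted as windows, and 1 of them began 462 bp before the next region. Met, which encodes the receptor of hepatocyte growth factor, had 3 regions, all of them over 90 kb from any window without TNFa. Its promoter region, at chr6:17463463-17463587, had 19.8 and 19.6 with TNFa+BMP4, 15.2 and 7.60 with TNFa, and 3.23 and 2.51 in background. Sbno2, Slc20a1, which encodes a phosphate transporter, and Slc6a4, which encodes the serotonin transporter, also had 3 each.

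The promoter regions with the highest fold over background were at Zhx2, S100a10, Atg10 and Slpi. Zhx2 encodes a transcriptional repressor, and its region with the higher fold, at chr15:57693854-57693978, had 11.5 and 17.5 tags per 10M with TNFa+BMP4, 10.9 and 16.2 with TNFa, and 0.202 and 0.358 in background. S100a10 encodes a binding partner of annexin A2, and its region had 11.5 and 24.4 with TNFa+BMP4, 13.3 and 25.8 with TNFa, and 0.202 and 0.537 in background. Slpi, which encodes a secreted inhibitor of leukocyte proteases, had 13.8 and 14.3 with TNFa+BMP4, 13.95 and 4.05 with TNFa, and 0.202 and 0.716 in background. The treated groups overlapped at all 3 genes, and the background there lay under its medians over promoter regions, 2.02 and 1.79.

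Whether adding BMP4 changed the regions was tested between the groups given TNFa. The rule kept only windows called in both of these groups, so windows called in only 1 of them were not tested. The values therefore cannot show whether BMP4 removed or added regions. Of the 846 regions, 719 had enough tags for the test. In a limma fit over 18071 windows with p-values adjusted by Benjamini-Hochberg, 0 regions and 0 windows in all (0%) passed an adjusted p of 0.05. At an unadjusted p under 0.05 there were 1 of 719 regions and 81 of 18071 windows (0.448%), and with voom weights 2 and 85. With the replicate number as a block, 30 regions (4.17%) and 9.06% of all windows did so, and 0 were called. In the fit without the block, the median standard error of a log2 fold change was 0.57. There, a 2-fold change of a single region came to less than 2 standard errors. The median log2 fold change was 0.064 over the regions and 0.011 over all windows, and 407 regions (56.6%) lay above 0, against 51.0% of all windows (9222 of 18071). This lean rested on the second TNFa library: without it the median of the regions was −0.094 and 41.5% lay above 0. With TNFa+BMP4 and TNFa kept apart by both libraries, 89 regions (12.4%) were higher and 45 (6.26%) lower, against 8.6% and 8.8% of all windows. Regions on the inflammatory lists had a median of −0.15, with 8 of the 24 tested above 0.

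**Figure D4:**
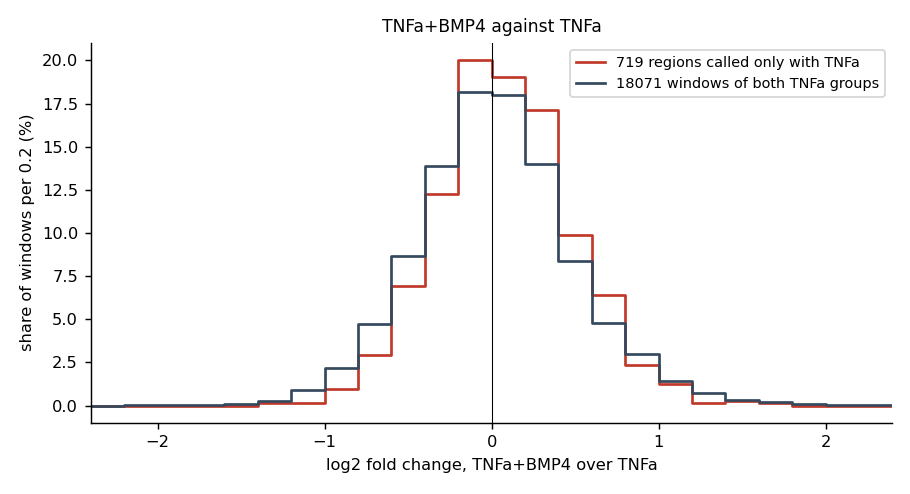
Log2 fold change of TNFa+BMP4 over TNFa, as the share (%) of windows in bins 0.2 wide, for the 719 tested regions called only with TNFa and for all 18071 tested windows. Only windows called in both groups were included. Both distributions centre close to 0, with medians of 0.064 and 0.011.

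The regions with the smallest p in this comparison give the range of single values. A region near 4933406D12Rik, at chr2:146533225-146533349, had 13.8 and 9.55 tags per 10M with TNFa+BMP4 and 3.03 and 3.55 with TNFa, a log2 fold change of 1.53 ± 0.59 (SE, n = 2 each, limma unadjusted p = 0.0295). An Itgav intron region at chr2:83744716-83744840 had 12.4 and 26.01 with TNFa+BMP4 and 6.07 and 9.63 with TNFa, a log2 fold change of 1.12 ± 0.52. A region near Olfml2b, which encodes an olfactomedin-like protein, had 18.8 and 22.3 with TNFa+BMP4 and 12.1 and 3.55 with TNFa, a log2 fold change of 1.45 ± 0.65. The groups did not overlap at these 3 regions, with TNFa+BMP4 the higher. On the other side, a region near Rps24 had 6.89 and 12.7 with TNFa+BMP4 and 16.4 and 19.8 with TNFa, a log2 fold change of −0.88 ± 0.50. A region 3522 bp upstream of C3, which encodes a complement component, had 8.27 and 16.5 with TNFa+BMP4 and 17.0 and 23.8 with TNFa, a log2 fold change of −0.75 ± 0.51. The groups did not overlap at either, with TNFa+BMP4 the lower, and none of the 5 passed the adjusted threshold.

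Where the genes of the regions also had windows called in all 4 groups, all groups could be compared at the same place. Of 14713 such windows tested, 0 (0%) passed an adjusted p of 0.05 in limma for TNFa over untreated cells, with 151 (1.03%) at an unadjusted p under 0.05, and 0 (0%) for TNFa+BMP4 over BMP4, with 239 (1.62%). With voom weights 0 passed in both, with 146 and 246. With the replicate number as a block 0 passed in both, and 885 (6.02%) and 1507 (10.2%) had an unadjusted p under 0.05, of which 97 and 139 lay at genes of the regions. The 1253 windows at genes of the regions had a median log2 fold change of −0.0017 for TNFa over untreated, against −0.015 over all windows, and of 0.014 for TNFa+BMP4 over BMP4, against 0.0048. Windows starting within 1 kb of a region numbered 56, with a median of 0.17 for TNFa over untreated (32 above 0) and of 0.025 for TNFa+BMP4 over BMP4 (28 above 0). Scaling by total tags moved the medians of all windows to −0.15 in both comparisons.

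At the inflammatory genes the shared windows leaned upward, except that over the 6 windows with identical coordinates in all lists the medians were −0.10 for TNFa over untreated and 0.028 for TNFa+BMP4 over BMP4. The 42 windows, at 17 genes, had a median log2 fold change of 0.28 for TNFa over untreated, with 31 above 0, against 48.9% of all windows. For TNFa+BMP4 over BMP4 the median was 0.22, with 28 above 0, against 50.3% of all windows. These 2 comparisons share no library, but same-numbered libraries deviated together across groups, so the comparisons are not independent. Without untreated replicate 2 the first median was 0.55, and without BMP4 replicate 1 the other was 0.10. Scaled by total tags they were 0.14 and 0.067. In 15 of the 42 both TNFa libraries exceeded both untreated ones, against 8.5% of all windows, and in 11 both TNFa+BMP4 libraries exceeded both BMP4 ones, against 12.1%. In the lower direction the libraries were apart in 3 and 4 of the 42, against 11.1% and 12.9% of all windows. The windows below 0 for TNFa over untreated lay at Itgb3, Il34, Map3k14, Tnip1 and Vcam1. The lowest, in an Itgb3 intron, was at −1.30 ± 0.72 (SE). The genes were picked on the same contrast, so the values describe these loci and support nothing further.

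**Figure D5:**
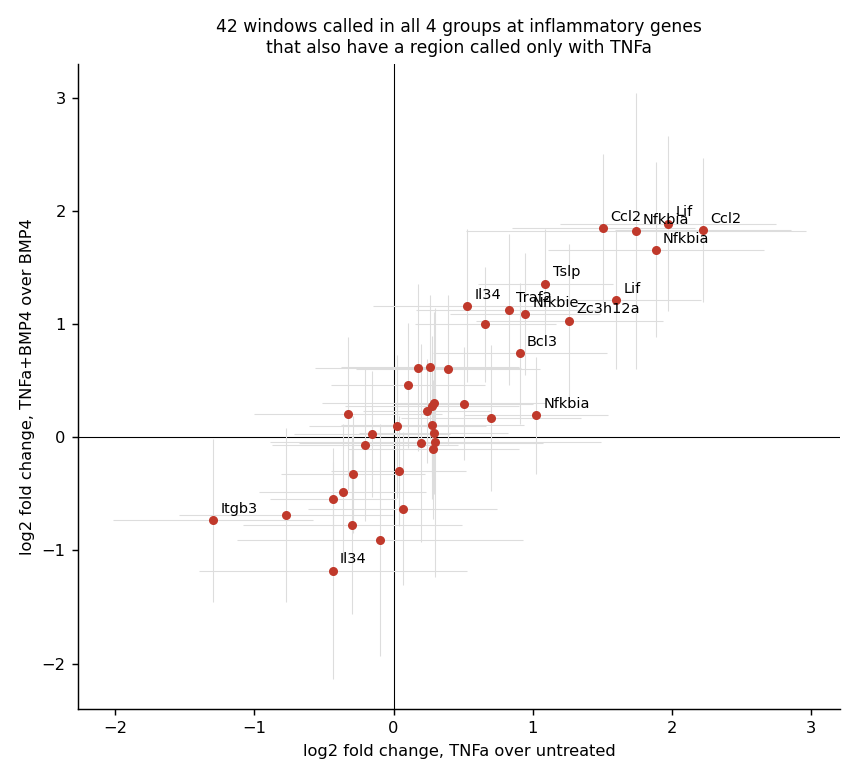
Log2 fold change of TNFa over untreated cells (horizontal) and of TNFa+BMP4 over BMP4 (vertical), with standard errors as grey lines, for 42 windows called in all 4 groups at inflammatory genes that also have a region called only with TNFa. Windows at Ccl2, Lif and Nfkbia lie farthest to the upper right, between 1.5 and 2.3 on the horizontal axis.

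The Nfkbia locus shows how regions and shared windows lay side by side. Its region was flanked by shared windows starting 832 bp and 1237 bp to one side and 706 bp to the other. The window at chr12:55464905-55465029 had 45.5 and 41.5 tags per 10M with TNFa, against 18.3 and 8.24 untreated, and 35.4 and 37.7 with TNFa+BMP4, against 20.3 and 7.16 with BMP4. The groups did not overlap in either comparison, and the log2 fold changes were 1.88 ± 0.78 and 1.66 ± 0.78. The window 1237 bp away, at chr12:55464500-55464624, had 54.6 and 21.8 with TNFa, against 22.96 and 4.81 untreated. With TNFa+BMP4 it had 65.3 and 30.8, against 35.3 and 4.66 with BMP4. Its groups overlapped in both comparisons, and the log2 fold changes were 1.74 ± 1.22 and 1.83 ± 1.22. The window on the other side, at chr12:55466443-55466567, had 21.8 and 14.7 with TNFa, against 8.65 and 9.96 untreated, and 17.0 and 18.6 with TNFa+BMP4, against 15.4 and 19.3 with BMP4. There the groups were apart without BMP4 and overlapped with it, and the difference between the 2 effects, −0.83 on the log2 scale, did not pass the test.

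At Ccl2, a shared window between its 2 regions, at chr11:82011931-82012055, had 97.7 and 58.3 tags per 10M with TNFa, against 40.6 and 20.3 untreated, and 74.9 and 67.4 with TNFa+BMP4, against 22.3 and 20.4 with BMP4. A window nearer to the start, at chr11:82033068-82033192, had 30.9 and 74.0 with TNFa, against 6.66 and 16.8 untreated, and 20.2 and 50.9 with TNFa+BMP4, against 5.76 and 15.4 with BMP4. In both windows the groups given TNFa stood above those without it and did not overlap. The Ccl2 promoter window itself had 26.7 and 59.8 with TNFa, against 21.3 and 60.4 untreated, and 17.5 and 41.9 with TNFa+BMP4, against 8.83 and 65.9 with BMP4, so it overlapped in both comparisons.

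At Lif, a shared window at chr11:4309142-4309266, 9293 bp beyond its region, had 65.5 and 38.5 tags per 10M with TNFa, against 15.97 and 11.3 untreated, and 64.3 and 71.6 with TNFa+BMP4, against 33.4 and 11.5 with BMP4. The groups did not overlap, and the log2 fold changes were 1.97 ± 0.78 and 1.89 ± 0.78. A shared window closer to the region, 3326 bp away, overlapped in both comparisons. It had 17.0 and 15.2 with TNFa, against 15.97 and 13.4 untreated, and log2 fold changes of 0.26 ± 0.64 and 0.62 ± 0.64. The window in the 3′ UTR of Lif had 67.9 and 28.4 with TNFa, against 59.6 and 30.9 untreated, and overlapped. Outside the inflammatory lists, Dusp10, which encodes a phosphatase of p38 and JNK kinases, was the nearest gene of an intergenic shared window. It lay 226960 bp from the start of Dusp10 and 212088 bp from the nearest region, so its assignment rests on distance alone. The window had 101 and 38.5 with TNFa, against 12.6 and 19.2 untreated, and 97.9 and 54.7 with TNFa+BMP4, against 10.4 and 19.7 with BMP4. A window at Gdnf, which encodes a neurotrophic factor, had 32.8 and 19.8 with TNFa, against 6.99 and 5.49 untreated, and 41.8 and 32.9 with TNFa+BMP4, against 8.45 and 5.01 with BMP4. Neither window's groups overlapped, and the log2 fold changes of TNFa over untreated were 2.08 ± 0.70 and 2.04 ± 0.65.

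Genes outside the inflammatory lists also had shared windows that were lower with TNFa. Vgll4, which encodes a cofactor that opposes YAP, had an intron window 173627 bp from the nearest region. It had 4.85 and 11.1 tags per 10M with TNFa, against 29.3 and 52.2 untreated, and 10.1 and 12.7 with TNFa+BMP4, against 24.95 and 72.0 with BMP4. Aldh1a3, which encodes a retinal dehydrogenase, had a window with 6.67 and 8.61 with TNFa, against 23.6 and 26.4 untreated, and 8.73 and 6.37 with TNFa+BMP4, against 27.6 and 27.9 with BMP4. A window at Lgals3, which encodes galectin 3, had 6.07 and 16.2 with TNFa, against 23.96 and 53.9 untreated, and 9.65 and 20.7 with TNFa+BMP4, against 25.7 and 76.3 with BMP4. The groups did not overlap at these 3 windows, the log2 fold changes of TNFa over untreated were −2.15 ± 0.57, −1.49 ± 0.54 and −1.63 ± 0.63, and none passed the adjusted threshold. Of all 14713 windows, 11.1% were apart and lower for TNFa against untreated, and 12.9% for TNFa+BMP4 against BMP4. At genes of the regions this held for 142 and 164 of 1253 windows.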

How the data were processed

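ATAC-seq libraries of 4 groups were analysed from the authors' peak lists, 1 per group. The submitters' processing notes name HOMER 4.11, Bowtie2 2.5.1, Trimmomatic 0.39, deepTools 3.5.1, Picard 2.25.1 and build mm10. A read shift for the transposase was not given in the sources used here. Peaks came from HOMER runs on pooled replicates against both background libraries, per the file headers, and the authors kept an adjusted p-value under 0.05 and a log2 fold of at least 1. The deposited columns per library are regularised log2 values fitted per list, although the headers call them tag counts. The deposited peak score was used only to describe windows and, in an alternative, to shorten the lists. The counts behind them were recovered by solving the rlog equation, and 99.3% to 99.99% of values came out within 0.1 of a whole number. All 846 regions had whole counts in the TNFa list. Levels are counts per 10M of the library's total tags.

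Windows with at least 10 counts in 2 libraries and 15 in all were tested with limma 3.58.1 (R 4.3.3, trend) on log2 of TMM-scaled counts with a pseudocount of 2, so fold changes of low windows are understated. The planned design assumed deposited counts. On simulated data of known fold the fit was checked. The regions and gene lists were chosen with earlier results of these data known. Named regions are those at listed genes, the 12 highest by fold, by tags and among promoters, the 8 per direction with the smallest p, genes with 3 or more regions, and the 8 shared windows per direction with the smallest p in TNFa over untreated cells. H2-K1, Mrm3, Mir100hg and other regions whose letters are shown were named for their motif, after their values were seen. Same-numbered libraries deviated together (correlations of 0.105 to 0.761 over windows), so the numbers were taken to pair the libraries. A fit with the replicate number as a block was an alternative. All standard errors given come from the fit without it, which leaves out this pairing. Sequences and names came from RefSeq, and all 307 listed symbols matched.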

Additional observations from a re-analysis of the deposited data

How the results depend on the processing

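The count of 846 regions depended on the rule. It was 230 with identical starts, 556 with no window without TNFa within 5000 bp, 87 with an adjusted p under 0.001 in both lists, 288 with a log2 fold of at least 3 in both, and 1299 with the lists cut to equal length by peak score. Under the other 4 limits tried it ranged from 675 to 1187. The 4 test results kept 0 calls under each scaling, pseudocount, filter and weighting tried, and leaving out a library gave 0 to 1 calls for TNFa+BMP4 over TNFa (1 window without TNFa replicate 1, not a region) and 0 for the other comparisons. With the replicate block 0 windows were called, and 30 regions (4.17%) had an unadjusted p under 0.05, against 9.06% of all windows. Leaving out a library, the median of the regions for TNFa+BMP4 over TNFa ranged from −0.094 to 0.11, lowest without TNFa replicate 2. The median of the 42 inflammatory windows ranged from 0.22 to 0.55 for TNFa over untreated (highest without untreated replicate 2) and from 0.10 to 0.33 for TNFa+BMP4 over BMP4 (lowest without BMP4 replicate 1). With identical coordinates it was −0.10 and 0.028 over 6 windows, fewer by construction, and with total tags 0.067 for TNFa+BMP4 over BMP4; the cause was not tested. The 50 single folds recomputed, all but 2 of windows picked for a small p, kept their direction under all 600 alternative values. Of the 54 shared windows at inflammatory genes or with the smallest p, 19 (TNFa over untreated) and 21 (TNFa+BMP4 over BMP4) had at least 1 alternative of opposite sign, among them the Ccl2 promoter (−0.27 to 0.89 and −0.74 to 1.34) and the 3′ UTR window of Lif (−0.57 to 0.92 and −0.10 to 1.34). Depth limits the lowest regions, 127 of which had too few tags to test.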
